A study of Mus musculus with 4 samples.

Results

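The genes described here are Phgdh, Psat1, Shmt2, Mthfd2 and Asns, which encode enzymes that make serine, glycine, folate-bound one-carbon units and asparagine. They were chosen by name, as the amino acid synthesis arm of the targets of ATF4, with earlier results of these data known. They are 5 of the 53465 gene IDs in the deposited table. Ribosome footprints, the short RNA fragments that ribosomes shield from nuclease, were counted in MLE-12 cells, mouse lung epithelial cells transformed by SV40 large T antigen, which stand in for alveolar type 2 cells. Of the 4 libraries, 2 are controls without 1-nitropyrene (replicates 1 and 2). The other 2 (replicates 2 and 3) come from cells exposed for 12 h to 5 µM of 1-nitropyrene, a nitroarene found in diesel exhaust. No genotype, allele or vehicle is named in the labels, all libraries came from the same line, and nothing there says that the 2 samples of a group were separate cultures, so the spread behind the p-values may be technical.

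Serine is built from the glycolytic intermediate 3-phosphoglycerate, and the cell then splits it in mitochondria to glycine and a one-carbon unit carried on folate, which serves nucleotide and methionine metabolism. Asparagine is made separately, from aspartate and the amide nitrogen of glutamine. Genes of both routes are textbook targets of ATF4, a transcription factor whose own translation goes up when the eIF2alpha kinases of the integrated stress response are active, as in amino acid shortage or stress of the endoplasmic reticulum. ATF4 binds C/EBP-ATF response elements, and the element near the start of the Asns gene is among those studied longest.

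Footprints on 2 of the 5 genes, Psat1 and Asns, were called lower in 1-nitropyrene cells, and none of the 5 was called higher. Over all tested genes, 7.58% were called lower and 9.68% higher. Among tested genes with a mean count near that of Psat1, 69.5% were called in either direction and 7.37% lower. Sizes are given here for footprints. Those on Asns, which encodes the enzyme that makes asparagine, fell to 0.640 of their control level. Those on Psat1, which encodes the transaminase of serine synthesis, fell to 0.842. The 95% intervals of these folds overlap, and no difference in size between the 2 decreases is shown. Shmt2, Mthfd2 and Phgdh did not pass the test. The 2 decreases differ in how firmly they hold: the one of Psat1 was called under all 13 alternatives run, whereas the call of Asns was lost when either of 2 libraries was left out and with DESeq2.

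Across the whole table, edgeR's quasi-likelihood test called 1332 of 7719 tested genes at a Benjamini-Hochberg adjusted p under 0.05, which is 17.3% in either direction, 9.68% higher and 7.58% lower. All 5 genes had enough counts to be tested, and their 2 calls are to be read against that background. The median log2 fold change of the 5 genes was -0.077, and that of all tested genes was -0.0076. The groups did not overlap for 3 of the 5 genes, and the same held for 57.3% of all tested genes. Total counts ran from 1136145 to 1357034 per library. Levels are given in CPM, counts scaled to a library of 1e6 after TMM (edgeR's correction for differences in library makeup), in which 1 count was worth 0.761 to 0.861 CPM. With 2 libraries a group, an exact permutation test of a single value cannot go below p = 0.333.

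The regions around the transcript starts of the genes that fell, and of Mthfd2 as a gene that was not called, are shown because ATF4 acts through promoter elements. They are taken from RefSeq on GRCm38.p6, whose primary sequence is that of mm10, the build in the submitters' processing notes. Each runs from 250 bases before a listed start to 50 after it, and all 3 genes lie on the minus strand. The Asns and Psat1 windows lie at the 5′ end of the gene as RefSeq spans it, but the start of the Mthfd2 window lies 8407 bases inside its gene, so its upstream start is not covered. Capitals mark matches to 3 motifs searched on both strands: TGATGNAA, the core of the C/EBP-ATF response element, GTTACA, known from the Asns promoter as a second nutrient-sensing element, and CCAAT, the box bound by NF-Y. None of the marked matches overlap.
Asns, chr6:7693160-7693459: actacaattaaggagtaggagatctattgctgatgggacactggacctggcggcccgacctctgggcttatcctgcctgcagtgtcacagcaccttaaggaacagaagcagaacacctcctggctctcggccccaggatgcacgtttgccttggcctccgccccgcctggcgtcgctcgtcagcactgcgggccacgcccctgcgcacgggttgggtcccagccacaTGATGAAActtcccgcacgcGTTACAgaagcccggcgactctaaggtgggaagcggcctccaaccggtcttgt
Psat1, chr19:15925010-15925309: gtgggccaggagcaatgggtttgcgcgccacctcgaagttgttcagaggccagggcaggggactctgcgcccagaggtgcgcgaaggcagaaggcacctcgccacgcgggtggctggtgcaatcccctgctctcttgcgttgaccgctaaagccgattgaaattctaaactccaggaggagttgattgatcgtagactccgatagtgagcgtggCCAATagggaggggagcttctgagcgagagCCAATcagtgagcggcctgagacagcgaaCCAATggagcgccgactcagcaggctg
Mthfd2, chr6:83317555-83317854: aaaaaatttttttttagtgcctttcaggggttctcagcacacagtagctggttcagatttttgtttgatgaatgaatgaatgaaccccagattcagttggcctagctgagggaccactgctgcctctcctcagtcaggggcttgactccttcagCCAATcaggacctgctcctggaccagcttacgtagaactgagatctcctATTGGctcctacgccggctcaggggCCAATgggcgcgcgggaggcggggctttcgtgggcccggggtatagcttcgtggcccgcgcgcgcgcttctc

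In the windows listed, TGATGNAA was found for Asns and for none of the other 4 genes, as TGATGAAA beginning 23 bases before the start. GTTACA followed it, beginning 3 bases before the start, and was likewise found in no listed window of the other 4. TGATGNAA is present in 3.97% of the 32851 windows of this length in the table, and GTTACA in 8.25%. The Psat1 window printed above holds 3 CCAAT boxes, and the window of its other listed start holds none of the 3 motifs. Mthfd2 also has 3 CCAAT boxes, 1 of them on the opposite strand and so written ATTGG. Phgdh has 2 CCAAT boxes and Shmt2 none, against a share of 37.4% of all windows. These matches describe letters in a fixed window and say nothing about binding. Gene positions below are also RefSeq's on GRCm38.p6, and all 5 genes are on the minus strand.

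Phgdh (ENSMUSG00000053398, chr3:98313171-98339969), whose product takes the first step of serine synthesis by oxidising 3-phosphoglycerate, had few footprints. Control replicates 1 and 2 held 22 and 18 counts and 1-nitropyrene replicates 2 and 3 held 15 and 24, or 16.7, 15.2, 12.9 and 19.0 CPM. The treated libraries were the lowest and the highest of the 4, so the groups overlapped. The mean was 16.0 ± 1.09 CPM in control and 16.0 ± 4.32 CPM in 1-nitropyrene cells (SD, n = 2 each). The log2 fold change was 0.0050 ± 0.41 SE (edgeR adjusted p = 0.995), and its 95% interval ran from 0.577 to 1.75 of the control level. Of the 2158 tested genes with a mean count within 1.5-fold of that of Phgdh, 195 were called, and the smallest change called among them was 0.90 on the log2 scale. This is the smallest estimate that was called, and the smallest true change that could be detected for Phgdh was not tested. RefSeq lists a pseudogene, Phgdh-ps1, and how reads that match several genes were counted is not given in the sources used here, so the counts of Phgdh are uncertain.

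Psat1 (ENSMUSG00000024640, chr19:15905123-15925059) encodes phosphoserine aminotransferase, which takes the next step by moving the amino group of glutamate onto the product of Phgdh. It was among the most deeply covered genes of the table, with the rank 61 by mean count among 7719. Control replicates 1 and 2 had 1541 and 1309 counts, and 1-nitropyrene replicates 2 and 3 had 1119 and 1205. These are levels of 1172 and 1104 CPM in control cells against 963 and 955 CPM in 1-nitropyrene cells. Both treated libraries lay below both controls, and the lowest control was 1.15 times the highest treated library, while the libraries of a group differed 1.06-fold and 1.01-fold.

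The Psat1 mean fell from 1138 ± 47.9 to 959 ± 5.97 CPM (SD, n = 2 each), with a log2 fold change of -0.25 ± 0.051 SE (edgeR adjusted p = 3.26e-05). The control level was 1.19 times the treated one, with a 95% interval of 1.11 to 1.27. As a share of all counts, Psat1 took 0.122% and 0.115% of the control libraries and 0.0900% and 0.0888% of the treated ones. Such a share scales by total counts, without TMM. With total counts as the scale the log2 fold change was -0.41 in place of -0.25 (edgeR adjusted p = 8.35e-14), so the size of the decrease, but not its direction, moved with the scaling. That scaling shifted the median log2 fold change of all tested genes from -0.0076 to -0.17, which is a shift of the same size.

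Psat1 moved against most of the genes of like depth. Of the 95 tested genes with a mean count within 1.5-fold of its own, 59 were called higher and 7 lower, Psat1 being 1 of the 7. The median log2 fold change of these 95 genes was 0.25, and 5.26% of them had a lower value than Psat1. At this depth 69.5% of genes were called in either direction, so that a call as such is common there, and changes down to 0.14 on the log2 scale were called.

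**Figure D1:**
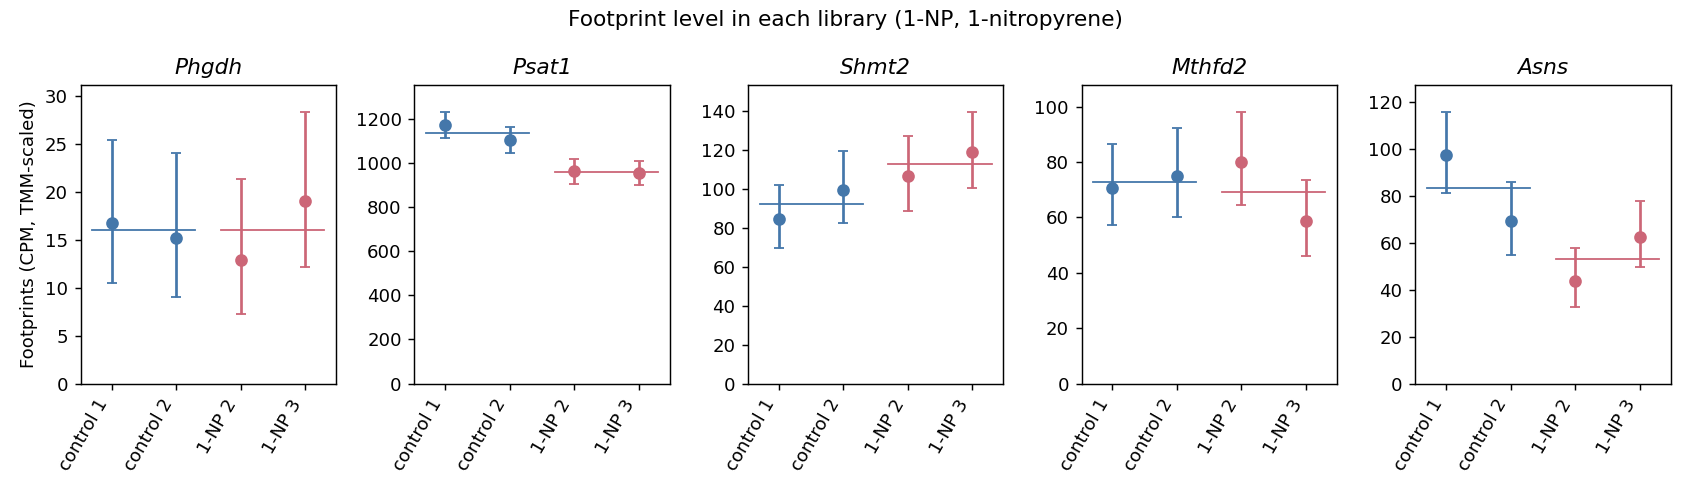
Footprint level in CPM after TMM scaling (y axis, from 0, with a separate scale for each gene) in the 4 libraries (x axis) for each of the 5 genes. Points are libraries, bars their exact 95% Poisson intervals for counting error, and horizontal lines the group means. For Psat1 both treated libraries (963 and 955 CPM) lie below both controls, for Asns control replicate 2 (69.2 CPM) and 1-nitropyrene replicate 3 (62.6 CPM) lie close together, and for Phgdh and Mthfd2 the groups overlap.

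Shmt2 (ENSMUSG00000025403, chr10:127517123-127522444) is the mitochondrial serine hydroxymethyltransferase, which splits serine into glycine and a one-carbon unit on tetrahydrofolate. Its footprints numbered 111 and 118 in controls 1 and 2, and 124 and 150 in 1-nitropyrene replicates 2 and 3, or 84.4, 99.6, 107 and 119 CPM. Both treated libraries lay above both controls, but the lower treated library was only 1.07 times the higher control, and the libraries within a group differed by more than that, 1.18-fold and 1.11-fold. The mean was 92.0 ± 10.7 CPM in control and 113 ± 8.56 CPM in 1-nitropyrene cells (SD, n = 2 each). The log2 fold change of 0.30 ± 0.17 SE did not pass the test (edgeR adjusted p = 0.209), and its 95% interval ran from 0.983 to 1.54 of the control level. Among 1127 tested genes of like depth the smallest change called was 0.36 on the log2 scale, above that of Shmt2. With total counts as the scale its log2 fold change was 0.14. RefSeq places Ndufa4l2 across part of the Shmt2 locus, and whether counting used the strand is not given in the sources used here, so reads of the pair may not be separated.

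Mthfd2 (ENSMUSG00000005667, chr6:83305704-83326011), the mitochondrial dehydrogenase and cyclohydrolase that oxidises the one-carbon unit released by Shmt2, showed no shift of its mean beyond the spread of the treated libraries. Controls 1 and 2 had 93 and 89 counts, and 1-nitropyrene replicates 2 and 3 had 93 and 74, or 70.7, 75.1, 80.0 and 58.6 CPM. The treated libraries were again the highest and the lowest of the 4. The mean was 72.9 ± 3.08 CPM in control and 69.3 ± 15.1 CPM in 1-nitropyrene cells (SD, n = 2 each), with a log2 fold change of -0.077 ± 0.20 SE (edgeR adjusted p = 0.845). The 95% interval was 0.723 to 1.24 of the control level, so an increase or a decrease inside these bounds is not shown to be absent. Without 1-nitropyrene replicate 3 the sign turned, to 0.14 on the log2 scale.

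Asns (ENSMUSG00000029752, chr6:7675165-7693209), asparagine synthetase, converts aspartate to asparagine with the amide nitrogen of glutamine. It had 128 and 82 counts in controls 1 and 2, against 51 and 79 in 1-nitropyrene replicates 2 and 3. In CPM these are 97.4 and 69.2 in control cells and 43.9 and 62.6 in 1-nitropyrene cells. Both treated libraries lay below both controls, but the groups nearly met, the lower control being 1.11 times the higher treated library. The libraries of 1 group differed from each other by more than that, 1.41-fold among the controls and 1.43-fold among the treated. The exact 95% Poisson interval was 81.2 to 116 CPM in control replicate 1 and 55.0 to 85.9 in control replicate 2, which overlap, and 32.7 to 57.7 CPM in 1-nitropyrene replicate 2 and 49.5 to 78.0 in replicate 3, which overlap as well. Such intervals cover counting error only, and their overlap does not show that the libraries of a group differ by counting error alone.

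The Asns mean fell from 83.3 ± 19.9 to 53.2 ± 13.2 CPM (SD, n = 2 each), a log2 fold change of -0.64 ± 0.20 SE (edgeR adjusted p = 0.0144). The control level was 1.56 times the treated one, with a 95% interval of 1.19 to 2.06. Of the 1517 tested genes of like depth 130 were called lower, and 5.47% had a lower log2 fold change than Asns. edgeR estimated infinite prior degrees of freedom and so gave each gene the spread that its abundance predicts, and the wide spread of Asns itself did not enter. DESeq2's Wald test gave nearly the same log2 fold change, -0.63, but did not call it (adjusted p = 0.267). Its standard errors were wider than edgeR's for every gene of the set, 0.083 against 0.051 for Psat1 and 0.34 against 0.20 for Asns. Why the call of Asns was lost there was not tested. Without control replicate 1 the log2 fold change was -0.37 (edgeR adjusted p = 0.444), and without 1-nitropyrene replicate 2 it was -0.40 (edgeR adjusted p = 0.355). Without control replicate 2 or 1-nitropyrene replicate 3 it was -0.86 and -0.93, with edgeR adjusted p of 0.00807 and 0.00806. The call thus rests on the highest and the lowest of the 4 libraries.

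**Figure D2:**
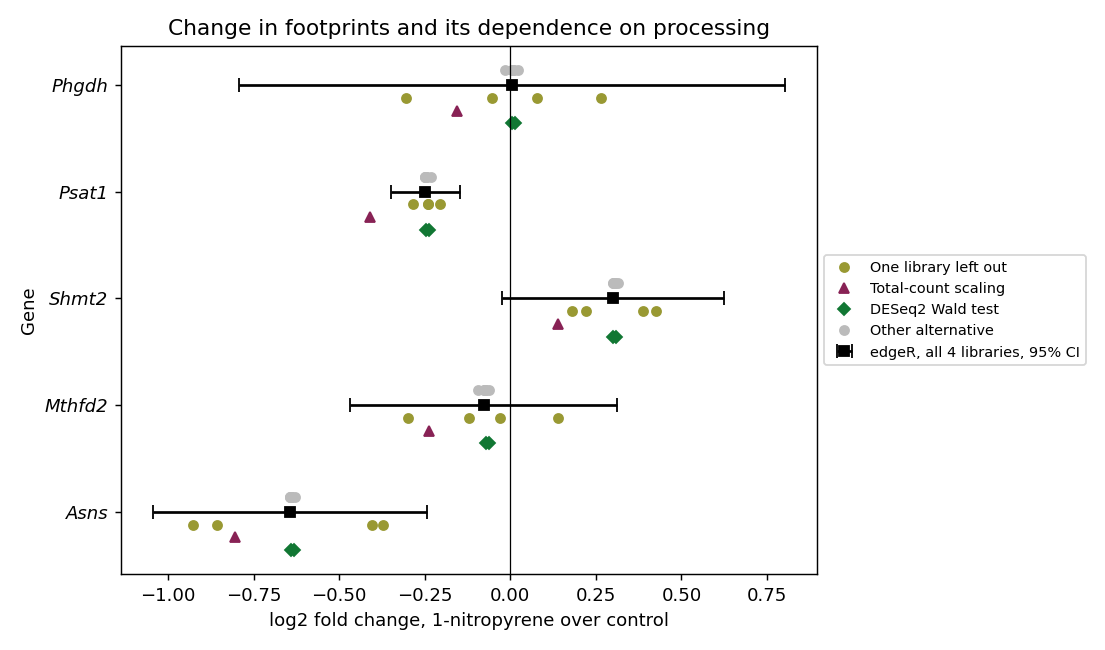
The log2 fold change of 1-nitropyrene over control (x axis) for each of the 5 genes (y axis). Black squares and bars are the edgeR estimate on all 4 libraries with its 95% interval, and coloured points the estimates with 1 library left out, with total-count scaling, with DESeq2's Wald test and under the other alternatives. All points of Psat1 and of Asns lie below 0 and all points of Shmt2 above it, those of Asns without 1 library span -0.93 to -0.37, and those of Phgdh and Mthfd2 lie on both sides.

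The depth behind each gene sets what could be seen. Mean counts over the 4 libraries were 19.8 for Phgdh, 1294 for Psat1, 126 for Shmt2, 87.3 for Mthfd2 and 85.0 for Asns. Transcript lengths were not used here, so these counts give the precision of each gene and are not compared as levels. Mthfd2 and Asns had nearly the same depth and standard error, and of the pair only Asns was called. The decrease of Psat1, at log2 -0.25, is smaller than the smallest change called among genes of the depth of Asns or Mthfd2, which was 0.44 in size for either.

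**Figure D3:**
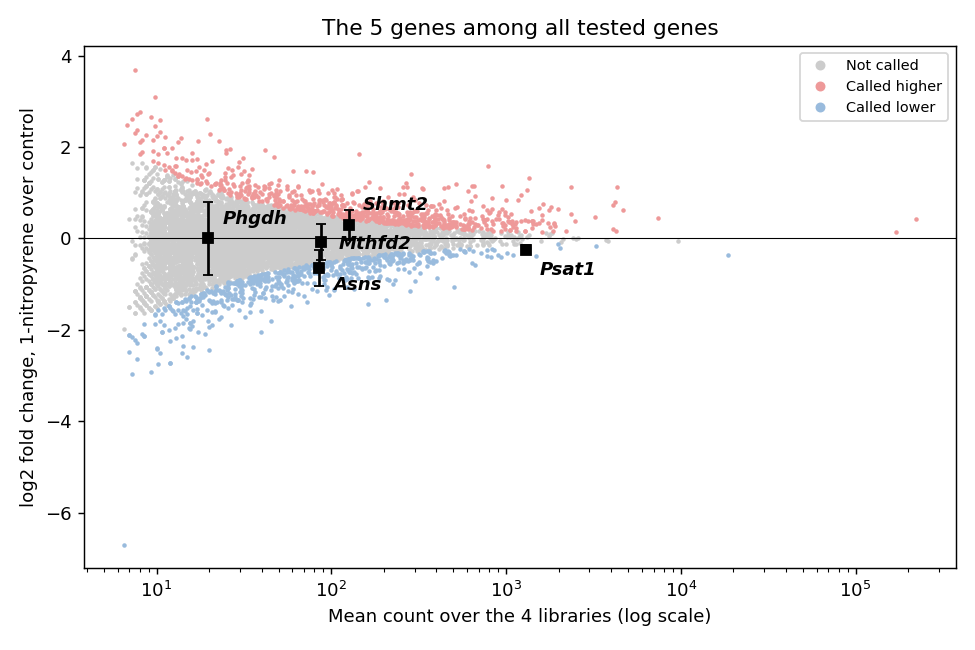
The log2 fold change of 1-nitropyrene over control (y axis) against the mean count over the 4 libraries (x axis, log scale) for the 7719 tested genes. Black squares are the 5 genes with 95% intervals, and small points the other genes, coloured by whether edgeR called them. Psat1 lies below 0 at a depth where most called genes lie above it. Among genes of the depth of Phgdh the smallest change called was 0.90 in size.

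Ratios of counts between members of the set within a library need no scaling between libraries. They were computed for all 10 pairs, as a description, with no test. The groups did not overlap for 4 of the 10 pairs, which share genes and are not independent. Among all pairs of tested genes with a count in every library 54.3% did not overlap, so a separated ratio is common in these libraries. The library ratio of Shmt2 to Asns was 0.867 and 1.44 in the controls and 2.43 and 1.90 in the 1-nitropyrene libraries. The treated libraries thus both lay above the controls, and the mean log2 ratio was 0.94 higher.

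Within serine metabolism, the ratio of Psat1, which makes serine's precursor, to Shmt2, which uses serine, was lower in the treated libraries. It was 13.9 and 11.1 in the controls and 9.02 and 8.03 in the 1-nitropyrene libraries, with no overlap, and the mean log2 ratio fell by 0.54. Such a separation was seen in 54.3% of all pairs of tested genes with a count in every library. Shmt2 by itself was not called. The ratio of Shmt2 to Mthfd2, the consecutive mitochondrial enzymes, was 1.19 and 1.33 in the controls and 1.33 and 2.03 in the treated libraries, so that control replicate 2 and 1-nitropyrene replicate 2 almost coincided. The ratio of Psat1 to Asns, the pair of genes that fell, was 12.0 and 16.0 in the controls and 21.9 and 15.3 in the treated libraries. Control replicate 2 thus lay between the treated libraries.

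**Figure D4:**
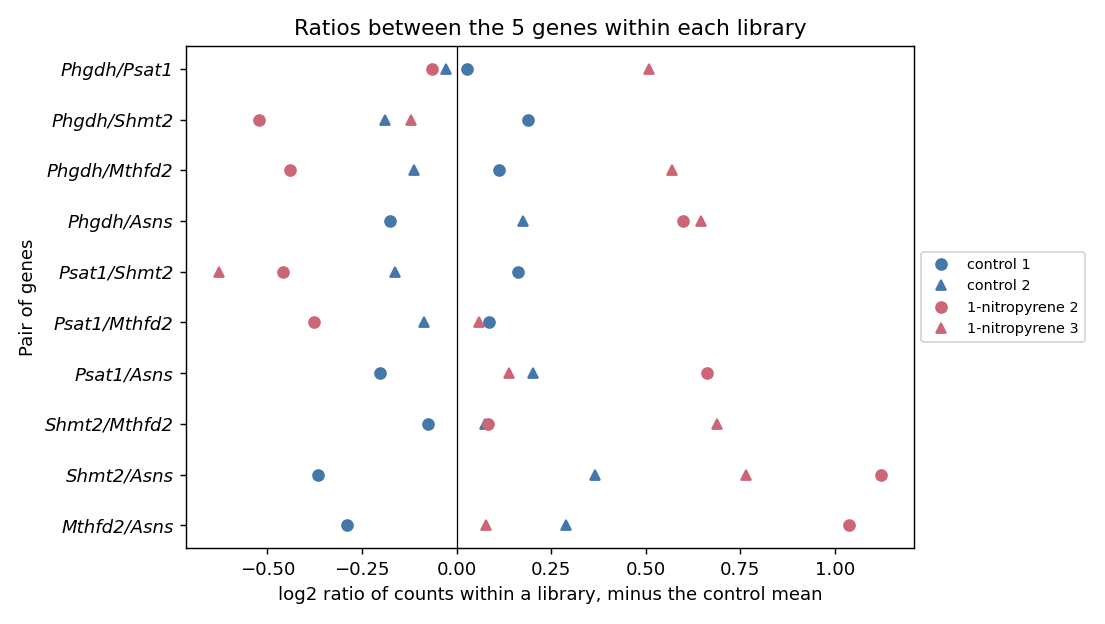
The log2 ratio of the counts of 2 genes within a library, minus the mean of the 2 controls (x axis), for the 10 pairs of the 5 genes (y axis). Blue points are control and red points 1-nitropyrene libraries. The treated libraries lie beyond both controls, on 1 side, for Phgdh/Asns, Psat1/Shmt2, Shmt2/Mthfd2 and Shmt2/Asns, and overlap with them for the other 6 pairs.

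Footprint counts combine how much mRNA of a gene is present with how densely ribosomes occupy it, and RNA libraries of these cells are not analysed here. In a bulk lysate, fewer cells with footprints on a gene and fewer footprints per cell cannot be told apart either. Values for ATF4 itself, for the other genes of these pathways and for markers of the cell type are not given, because the table names genes by Ensembl ID only and the reference table used here pairs 0 of its 49997 genes with such an ID.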

How the data were processed

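The authors deposited whole-number footprint counts per Ensembl gene ID, not normalized, in 1 column per library (0 other sample columns). The submitters' processing notes name mm10, featureCounts, HISAT2, Bowtie, DESeq2 and cutadapt; versions, settings, annotation and the handling of multi-mapping reads were not given in the sources used here. Per the labels' protocols, cells were washed with cycloheximide, which arrests ribosomes, and rRNA was depleted.

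Genes were kept with filterByExpr (minimum count 10, minimum total 15), scaled by TMM and tested with edgeR's quasi-likelihood F test (edgeR 4.0.16, R 4.3.3) without covariates, with p-values adjusted over all genes tested. Standard errors were derived from the fold change and F statistic, and 95% intervals from these. The script was tested on simulated counts. The alternatives tried were size factors of DESeq2, total counts, TMM leaving out the 2 most counted IDs, no filter, 5 CPM in 2 libraries, DESeq2 1.42.0, limma-voom (limma 3.58.1) and leaving out each library. edgeR's exact test with gene-wise dispersions and DESeq2 on the genes edgeR tested were chosen after seeing the data.

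The genes and lists were chosen with earlier results of these data known. Symbols of the 5 genes came with their definition, and all 5 matched RefSeq by symbol. The genes to be named were these 5, called members of 7 pathway lists and the genes most alike in pattern. The lists, cell type markers and like genes needed symbols for other IDs and were not analysed here.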

Additional observations from a re-analysis of the deposited data

How the results depend on the processing

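Over 65 combinations of a gene and an alternative, 56 kept direction and side of the threshold, 4 kept direction but lost the call, and 5 turned sign. Psat1 was called in all 13 alternatives (log2 fold change -0.41 to -0.20, adjusted p 8.35e-14 to 0.0408) and Shmt2 in none of 13 (0.14 to 0.43, adjusted p 0.198 to 0.655). All 4 lost calls were of Asns: -0.63 with DESeq2's Wald test (adjusted p = 0.267), -0.64 with it on the genes edgeR tested (adjusted p = 0.314), and without either of 2 libraries. It was called in the other 9 (adjusted p over all 13 from 0.00138 to 0.444), also with edgeR's exact test with gene-wise dispersions (adjusted p = 0.0127). The dispersions of that exact test were moderated towards the values that abundance predicts. How much weight the spread of Asns itself had in them was not examined. The sign turns were of genes not called: Phgdh gave -0.16 with total counts and -0.015 with limma-voom. With 1 library left out, where the remaining sample of that arm is taken to vary as the other arm does, values ran from -0.30 to 0.26 for Phgdh, -0.28 to -0.20 for Psat1, 0.18 to 0.43 for Shmt2, -0.30 to 0.14 for Mthfd2 and -0.93 to -0.37 for Asns. Calls over all genes, 1332 (747 higher, 585 lower), were 315 with DESeq2's Wald test, 345 with it on the genes edgeR tested, and 572 to 834 without 1 library; total counts gave 410 higher and 1098 lower. The causes were not tested. DESeq2's own filter gave no adjusted p for Phgdh. No paired analysis was possible because 2 is the single replicate number that both groups have. The alternatives for the pathway lists were not run, as no list could be tied to IDs.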
